A study of Mus musculus with 6 samples.

Results

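Growth factor transcripts were followed in cultured mouse fibroblast-like synoviocytes, which are connective tissue cells that line joints. The set holds 43 genes of the fibroblast growth factor (FGF), platelet-derived growth factor (PDGF), insulin-like growth factor (IGF), hepatocyte growth factor, KIT, GAS6, midkine and neurotrophic families. Each gene is represented by a probe set whose annotation gives that gene alone, and all 43 were measured, among 22180 genes in all. Of the members, 24 are counted as ligands, 10 as receptors, 7 as IGF binding proteins and 2 as receptor adaptors. The ligand group includes genes such as Fgf13, whose FGF-like protein stays inside the cell.

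The cells came from knee synovium of C57BL6 mice, used between passages 4 and 8. The cells of all 6 samples received an adenovirus for 2 h at a multiplicity of infection of 800, followed by 24 h of culture. On 3 arrays the virus was empty (Mock), and on 3 it carried Epas1 (Ad-Epas1), so both groups had been infected. The Epas1 product is HIF-2alpha, a transcription factor regulated by oxygen, and the comparison asks which transcripts differ after its delivery by virus. The labels call the replicates biological without stating if separate animals or cultures were used, so p-values measure only the spread between these samples, which may be technical. Nothing is said there of the promoter that drives Epas1 in the virus.

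Most growth factors of this set act on receptor tyrosine kinases at the cell surface. FGFs need heparan sulfate to bind their receptors, PDGFs act on mesenchymal cells such as fibroblasts, and IGF binding proteins hold IGF1 outside the cell and control how much of it reaches its receptor. In the joint, synovial fibroblasts are both a source of such factors and a target of PDGF and FGF. GDNF, BDNF and other neurotrophic factors are known mainly from nerve cells and are also made by connective tissue cells.

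The delivered gene was high on every Ad-Epas1 array, with Epas1 at 13.13 ± 0.02 against 8.63 ± 0.11 in Mock (log2, mean ± SD, n = 3 each), a log2 fold change of 4.50 (limma, adjusted p = 4.6e-06). All 12 fibroblast markers, among them Thy1 (CD90), lay above 6.62 on every array, the level below which 95% of 1393 olfactory and vomeronasal receptor genes lay. That value is used below as a reference for genes not known from these cells. Levels of these markers moved as well, with 3 lower (Pdgfrb -1.20, Cdh11 -1.26 and Col3a1 -0.89), 2 higher (Pdpn 0.73 and Prg4 0.55) and 7 not passing. Without Ad-Epas1 replicate 3, 6 fell and 2 rose. Their median deviation from the Mock mean was -0.46, -0.34 and -0.10 on Ad-Epas1 replicates 1, 2 and 3. The labels describe cultures of mostly CD90-positive cells with very few CD14-positive ones, yet 11 of 12 macrophage markers were above the reference on 5 arrays. Their summed log2 level was 127.6 to 132.1 in Mock and 128.0 and 125.5 on Ad-Epas1 replicates 1 and 2, and 86.7 on Ad-Epas1 replicate 3. On that array Adgre1 (5.89) and Ptprc (5.76) lay below the reference, against 11.68 to 12.66 and 9.27 to 9.72 elsewhere. The similar sums on the other arrays hide markers that moved apart. Mrc1 was at 7.96 and 7.93 on Ad-Epas1 replicates 1 and 2 against 9.96 to 10.95 in Mock, and C1qa at 9.19 and 9.15 against 10.67 to 11.01. Both fell over all arrays (limma, adjusted p = 0.0094 and 0.0089), the only 2 of the 12 to pass, whereas Cd14 was at 11.92 and 11.40 on those arrays against 9.99 to 10.42 in Mock and at 8.62 on Ad-Epas1 replicate 3. In RNA of whole cultures, fewer cells of a type and less RNA per cell cannot be told apart. Results that move with this array are given below with and without it.

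Of the 24 genes counted as ligands, 11 fell, 2 rose and 11 did not pass, where 9.75% of all genes fell and 6.57% rose. Fibroblast and macrophage markers of these cultures moved as given above. The part of those markers in the result was not tested. Of 43 members, 5 rose and 13 fell (18 of 43, 41.9%), where 16.3% of all genes passed (6.57% higher and 9.75% lower in Ad-Epas1). Among the 14053 genes whose mean level lay above the reference, 23.2% passed, 8.77% higher and 14.4% lower, and 37 members are of that kind. At a fold of at least 1.5 as well, 3 members rose and 13 fell, against 2.57% and 5.19% of all genes. By role, 12 of the 24 genes counted as ligands had a log2 fold change above 0 and 12 below it. Fgf13 was among the 11 that fell. Of 10 receptors 1 rose and 1 fell, of 7 binding proteins 2 rose and none fell, and 1 of 2 adaptors fell. The median log2 fold change was -0.13 over the ligands, 0.08 over the receptors, 0.07 over the binding proteins and 0.05 over all genes. The groups did not overlap for 25 of 43 members, against 39.7% of all genes. The risen genes were Gdnf, Igfbp5, Fgf9, Igfbp4 and Fgfr1. The fallen ones were Pdgfd, Fgf18, Hgf, Irs1, Pdgfb, Gas6, Kitl, Fgf10, Pdgfc, Fgfr2, Fgf7, Igf1 and Fgf13. Without Ad-Epas1 replicate 3, 6 members rose and 14 fell, against 10.3% and 14% of all genes. The number of fallen members depended on the arrays entered. It was 8 without Ad-Epas1 replicate 1 and 4 without Ad-Epas1 replicate 2, Mock replicate 2 or Mock replicate 3. The count over all genes dropped with the same arrays. From 2162 fallen genes it went to 1352 and 925 when Ad-Epas1 replicates 1 and 2 were left out in turn, and to 762 and 763 for Mock replicates 2 and 3. The number of risen members was 3 without Mock replicate 3, where all genes that rose went from 1458 to 418.

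**Figure D1:**
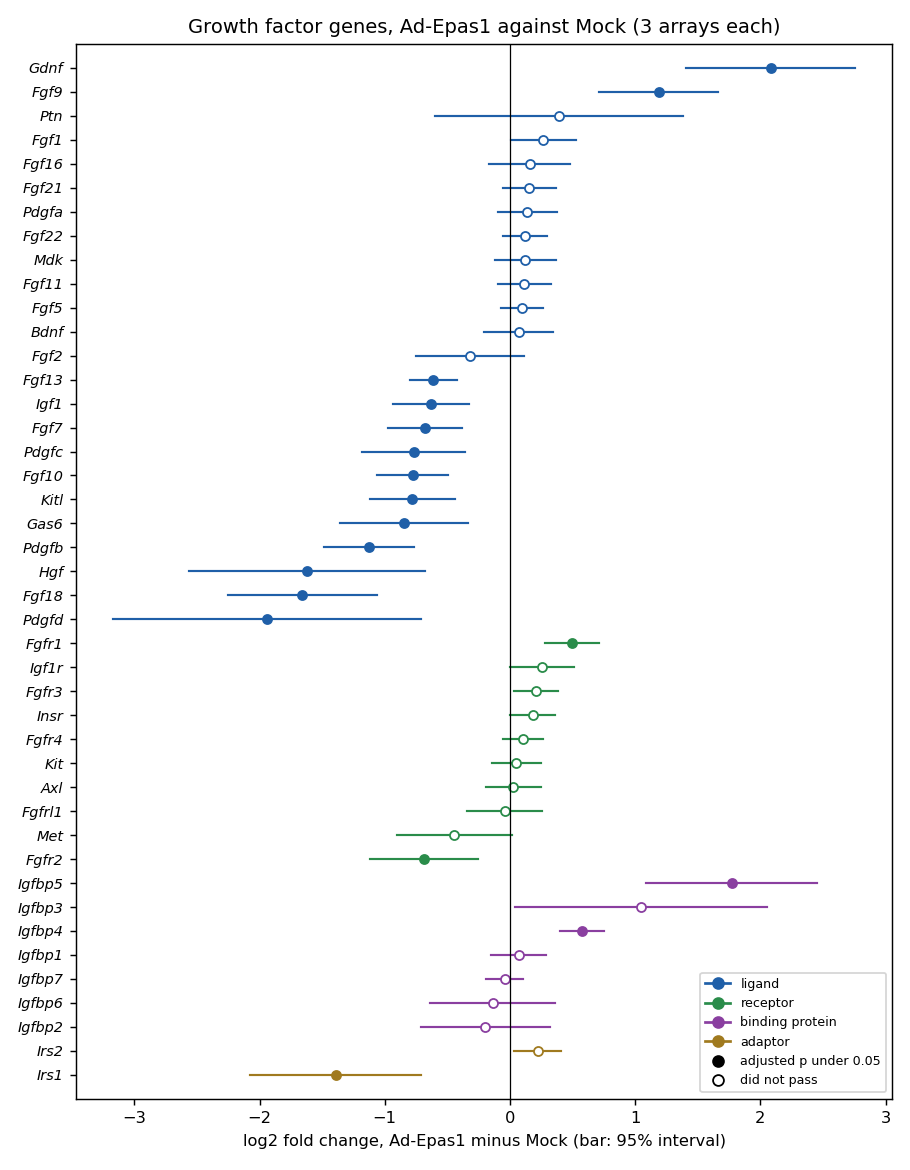
Log2 fold change (x axis, Ad-Epas1 minus Mock, 3 arrays each) of the 43 genes, 1 row a gene, grouped by role, with 95% intervals; filled points passed at an adjusted p under 0.05. Of the 24 genes counted as ligands, 11 filled points, Fgf13 among them, lie left of 0 and 2, Gdnf (2.08) and Fgf9 (1.19), right of it.

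Promoter windows are shown for the 3 largest rises and 2 largest falls, so that a reader can see the sequence at the start of the genes that moved most. The windows, from RefSeq (GRCm38.p6), run from 250 bases before to 50 bases after a gene's start, 5′ to 3′ on the gene's strand. Capitals mark the core of the hypoxia response element that HIF proteins bind, searched as ACGTG and GCGTG on both strands, where overlapping matches count separately.
Gdnf, first start, chr15:7809798-7810097, strand +: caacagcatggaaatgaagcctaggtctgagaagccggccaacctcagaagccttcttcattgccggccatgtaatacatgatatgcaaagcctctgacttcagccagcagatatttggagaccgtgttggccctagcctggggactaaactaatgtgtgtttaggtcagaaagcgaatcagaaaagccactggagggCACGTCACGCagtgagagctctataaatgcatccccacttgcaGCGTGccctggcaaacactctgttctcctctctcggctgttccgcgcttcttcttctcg
Gdnf, second start, chr15:7813477-7813776, strand +: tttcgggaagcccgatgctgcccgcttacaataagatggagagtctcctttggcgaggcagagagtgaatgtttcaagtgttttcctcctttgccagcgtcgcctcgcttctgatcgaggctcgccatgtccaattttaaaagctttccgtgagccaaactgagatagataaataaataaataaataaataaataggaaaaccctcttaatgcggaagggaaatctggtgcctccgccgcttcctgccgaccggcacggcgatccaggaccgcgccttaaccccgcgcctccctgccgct
Igfbp5, chr1:72874816-72875115, strand -: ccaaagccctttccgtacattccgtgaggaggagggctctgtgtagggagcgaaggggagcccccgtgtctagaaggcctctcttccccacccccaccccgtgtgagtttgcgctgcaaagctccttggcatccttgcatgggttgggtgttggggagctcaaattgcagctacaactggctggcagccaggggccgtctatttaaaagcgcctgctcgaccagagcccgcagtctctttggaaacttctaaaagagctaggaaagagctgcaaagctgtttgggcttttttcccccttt
Fgf9, chr14:58072436-58072735, strand +: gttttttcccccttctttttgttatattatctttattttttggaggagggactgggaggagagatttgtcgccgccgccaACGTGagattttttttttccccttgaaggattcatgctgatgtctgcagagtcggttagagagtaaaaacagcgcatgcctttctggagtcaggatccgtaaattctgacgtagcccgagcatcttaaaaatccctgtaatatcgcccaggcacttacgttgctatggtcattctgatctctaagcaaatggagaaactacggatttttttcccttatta
Fgf18, chr11:33147351-33147650, strand -: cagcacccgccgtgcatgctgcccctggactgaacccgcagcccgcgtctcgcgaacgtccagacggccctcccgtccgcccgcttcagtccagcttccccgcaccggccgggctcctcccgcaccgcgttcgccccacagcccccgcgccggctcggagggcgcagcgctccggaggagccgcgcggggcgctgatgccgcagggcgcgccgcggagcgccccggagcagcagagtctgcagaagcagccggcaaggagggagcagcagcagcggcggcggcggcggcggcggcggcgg
Pdgfd, chr9:6168236-6168535, strand +: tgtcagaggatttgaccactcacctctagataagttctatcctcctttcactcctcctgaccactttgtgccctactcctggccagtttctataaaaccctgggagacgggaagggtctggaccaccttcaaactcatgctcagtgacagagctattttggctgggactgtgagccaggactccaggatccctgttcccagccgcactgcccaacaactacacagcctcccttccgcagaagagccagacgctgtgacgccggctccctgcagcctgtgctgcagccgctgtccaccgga
The first Gdnf window held 3 matches, 1 of ACGTG and 2 of GCGTG, and the Fgf9 window held 1 of ACGTG. No match was found in the second Gdnf window or in those of Igfbp5, Fgf18 and Pdgfd. Windows were found for 37 of the 43 members. At least 1 match lay in 2 of 4 risen members with a window, in 7 of 12 fallen ones and in 17 of 21 that did not pass. Over all 27025 genes with a window the share was 46.7%. Counted by itself, ACGTG lay in 2 of the 4 risen members, in 2 of 12 fallen ones and in 8 of 21 that did not pass. The share was 32.4% of members with a window and 21.8% of all genes with one.

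Gdnf, which encodes the glial cell line-derived neurotrophic factor, rose the most among the members. It stood at 7.31, 6.56 and 6.78 on Mock replicates 1, 2 and 3 and at 9.43, 9.02 and 8.45 on Ad-Epas1 replicates 1, 2 and 3. No Mock value reached the Ad-Epas1 range, and Mock lay around the reference, so the fold is not exact. The rise was 4.24-fold (2.08 on the log2 scale, SE 0.28, limma, adjusted p = 0.0059), and it passed with any 1 array left out. Bdnf, which encodes brain-derived neurotrophic factor, stood at 7.60, 7.52 and 7.38 in Mock and at 7.38, 7.55 and 7.77 in Ad-Epas1. The Bdnf groups overlapped, and the difference of 0.07 had a 95% interval from -0.21 to 0.35 (adjusted p = 0.72). Of the receptor genes for these factors, Gfra1 fell. Gfra1, which encodes the GDNF-binding co-receptor, stood at 7.96, 8.42 and 8.49 in Mock and at 6.87, 7.28 and 7.42 in Ad-Epas1. It was 2.14-fold lower (adjusted p = 0.013), a call that ended without Mock replicate 2 or 3 (highest adjusted p 0.062). Ret, the kinase that signals for GDNF, was at 7.06, 6.72 and 6.84 in Mock and at 7.95, 7.36 and 7.09 in Ad-Epas1. The groups did not overlap, but the difference of 0.59 did not pass (adjusted p = 0.12, and 0.026 without Ad-Epas1 replicate 3). Ntrk2, the BDNF receptor gene, was at 6.32, 6.50 and 6.07 in Mock and 6.63, 6.73 and 6.25 in Ad-Epas1, on both sides of the reference (0.24, adjusted p = 0.34).

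Among 12 genes counted as FGF ligands, 1 rose, 4 fell, Fgf13 among them, and 7 did not pass. Over all genes 6.57% rose and 9.75% fell. Fgf9, an FGF known from developing joints and limbs, stood at 6.28, 6.32 and 5.96 in Mock and at 7.58, 7.60 and 6.94 in Ad-Epas1. Every Mock value lay below the reference and every Ad-Epas1 value above it. The log2 fold change was 1.19 (SE 0.20, adjusted p = 0.011), and the size is not exact at such levels in Mock. Without Mock replicate 3 Fgf9 no longer passed (adjusted p = 0.053).

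Fgf18, a ligand known for its action on cartilage, showed the deepest fall of the FGF genes. Its levels were 9.44, 10.25 and 10.33 in Mock and 8.62, 8.22 and 8.22 in Ad-Epas1. Fgf18 was thus 3.15-fold lower (-1.66 on the log2 scale, SE 0.25, adjusted p = 0.0080). Its call held with any 1 array left out, and Mock replicate 1 was the lowest Mock array. Fgf7 and Fgf10, mesenchymal ligands that act on epithelial cells, both fell. Fgf7 was at 10.67, 10.65 and 10.76 in Mock and at 9.75, 10.07 and 10.22 in Ad-Epas1 (1.60-fold lower, adjusted p = 0.015). Fgf10 was at 7.45, 7.44 and 7.79 in Mock and at 6.91, 6.74 and 6.69 in Ad-Epas1 (1.71-fold lower, adjusted p = 0.0083). Neither gene's groups overlapped. A second Fgf10 probe set fell by 0.88 in the fit of all probe sets (adjusted p = 0.0027). The call of Fgf7 ended without replicate 2 or 3 of Mock or replicate 2 of Ad-Epas1 (highest adjusted p 0.069).

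Fgf13 encodes an FGF-like protein that stays inside the cell. It stood at 7.14, 7.19 and 7.02 in Mock and at 6.43, 6.50 and 6.58 in Ad-Epas1, below the reference in the latter. Fgf13 was 1.53-fold lower (SE 0.08 on the log2 scale, adjusted p = 0.0048), and kept its call with any 1 array left out. Fgf2, the basic FGF, stood at 8.63, 9.24 and 9.27 in Mock and at 8.78, 8.57 and 8.83 in Ad-Epas1. Mock replicate 1 lay among the Ad-Epas1 arrays, and the difference of -0.32 did not pass (adjusted p = 0.27). Without that array it was -0.53 (adjusted p = 0.031). The other 6 FGF ligand genes (Fgf1, Fgf5, Fgf11, Fgf16, Fgf21 and Fgf22) differed by 0.10 to 0.27, with adjusted p from 0.14 to 0.46. The means of Fgf5 and Fgf16 lay below the reference in both groups.

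The receptors for FGFs moved in both directions. Fgfr1, the FGF receptor gene of connective tissue, stood at 10.94, 10.86 and 10.88 in Mock and at 11.30, 11.31 and 11.56 in Ad-Epas1. The groups did not overlap, and Fgfr1 rose 1.41-fold (0.50 on the log2 scale, SE 0.09, adjusted p = 0.015). Fgfr2, one splice form of which receives FGF7 and FGF10 in epithelium, was at 9.76, 10.35 and 10.24 in Mock and at 9.27, 9.33 and 9.68 in Ad-Epas1. It was 1.61-fold lower (SE 0.18 on the log2 scale, adjusted p = 0.046), with a gap of under 0.1 between the closest arrays of the groups. Calls of both receptors ended without some arrays. For Fgfr1 these were Mock replicates 2 and 3 (highest adjusted p 0.071). For Fgfr2 they were Mock replicates 2 and 3 and Ad-Epas1 replicates 1 and 2 (highest adjusted p 0.16), and the fall also did not pass with arrays centred on their median or after a second quantile step. Fgfr3, Fgfr4 and the kinase-less Fgfrl1 differed by 0.21, 0.11 and -0.04 and did not pass (adjusted p from 0.099 to 0.84). The means of Fgfr3 and Fgfr4 lay below the reference in both groups.

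Of 4 PDGF ligand genes, 3 fell and none rose, where 9.75% of all genes fell and 6.57% rose. Among genes above the reference 14.4% fell. Pdgfb stood at 8.72, 8.88 and 8.89 in Mock and at 7.92, 7.83 and 7.37 in Ad-Epas1. The groups lay well apart, and Pdgfb was 2.18-fold lower (-1.12 on the log2 scale, SE 0.15, adjusted p = 0.0056), with any 1 array left out as well. Pdgfc stood at 10.17, 10.57 and 10.72 in Mock and at 9.49, 9.94 and 9.73 in Ad-Epas1 (1.71-fold lower, SE 0.17 on the log2 scale, adjusted p = 0.028). PDGF-C and PDGF-D are secreted in a latent form that proteases activate. Pdgfd stood at 8.72, 9.33 and 9.44 in Mock and at 6.15, 7.20 and 8.32 in Ad-Epas1. Its Ad-Epas1 arrays spread over more than 2 log2 units, and the highest of them was the array with low macrophage transcripts, whose part in the result was not tested. The log2 fold change of Pdgfd was -1.94 (SE 0.52, adjusted p = 0.048), and -2.49 without Ad-Epas1 replicate 3 (adjusted p = 0.0033). On Ad-Epas1 replicate 1 Pdgfd lay below the reference, so the size of its fall is not exact. Left-out arrays ended the calls of Pdgfc and Pdgfd. For Pdgfc these were Mock replicates 2 and 3 and Ad-Epas1 replicates 1 and 2 (highest adjusted p 0.11), and for Pdgfd each array except Ad-Epas1 replicate 3 (highest adjusted p 0.16). Pdgfd also did not pass with arrays centred on their median, after a second quantile step or with a trended, robust variance prior. Pdgfa was at 9.15, 9.03 and 8.91 in Mock and at 9.09, 9.09 and 9.33 in Ad-Epas1, where the groups overlapped (0.14, 95% interval -0.10 to 0.37, adjusted p = 0.38).

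The receptor genes for PDGF, which are no members, differed from each other. Pdgfrb, a receptor of PDGF-B and PDGF-D, stood at 11.55, 11.77 and 11.81 in Mock and at 10.40, 10.30 and 10.82 in Ad-Epas1. It was 2.30-fold lower (-1.20 on the log2 scale, SE 0.15, adjusted p = 0.0044) and passed with any 1 array left out. Pdgfra, which has PDGF-A and PDGF-C among its ligands, stood at 11.55, 11.27 and 11.49 in Mock and at 11.36, 11.57 and 11.92 in Ad-Epas1. Its difference of 0.18 had a 95% interval from -0.19 to 0.55 (adjusted p = 0.46).

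**Figure D2:**
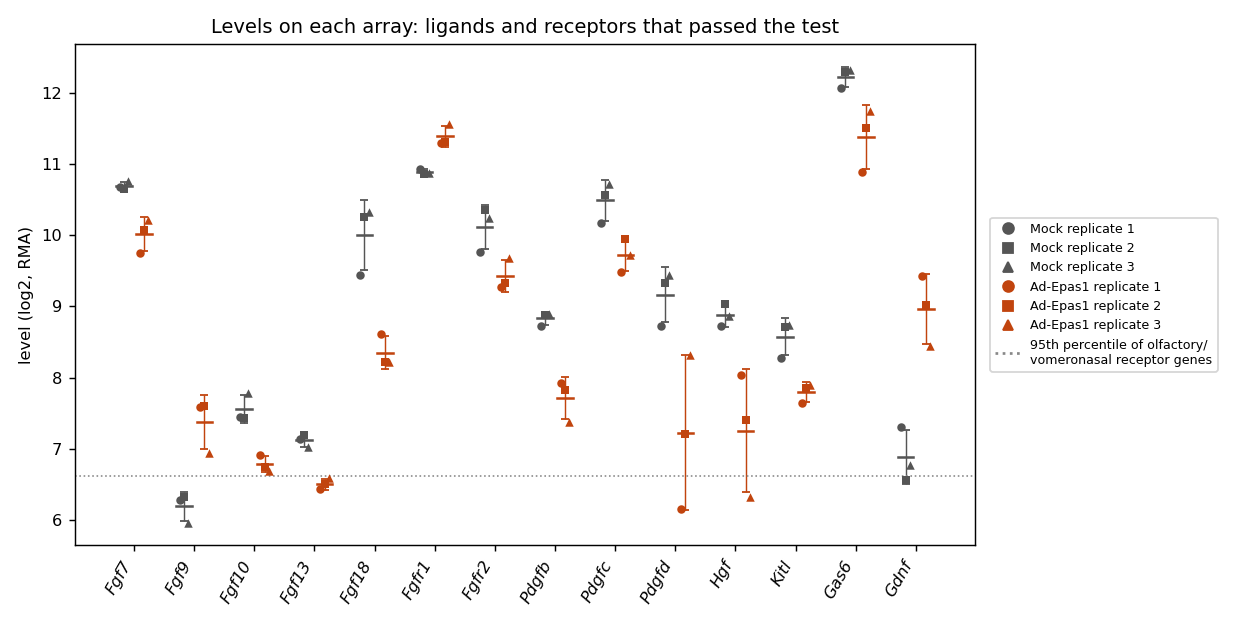
Log2 level (y axis) on each of the 6 arrays for the 14 ligand and receptor genes outside the IGF family that passed the test, with group means and SDs (n = 3) and the reference of 6.62 as a dotted line. The Ad-Epas1 points of Pdgfd (6.15 to 8.32) and Hgf (6.32 to 8.03) spread most, and in opposite order of the arrays.

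Hepatocyte growth factor, KIT ligand and GAS6 are further factors that connective tissue cells supply to other cells. Hgf stood at 8.72, 9.04 and 8.86 in Mock and at 8.03, 7.41 and 6.32 in Ad-Epas1. Here the lowest value was that of Ad-Epas1 replicate 3, where macrophage transcripts were low, and their part in the result was not tested. The log2 fold change was -1.62 (SE 0.40, adjusted p = 0.037), and without that array -1.15 (adjusted p = 0.0065). On that array Hgf lay below the reference, so the size of its fall over all arrays is not exact. Met, the HGF receptor gene, stood at 9.82, 10.44 and 10.47 in Mock and at 9.73, 9.66 and 10.01 in Ad-Epas1. Mock replicate 1 lay within the Ad-Epas1 range, and the difference of -0.44 did not pass (adjusted p = 0.16, and 0.027 without that array). Kitl, the ligand of KIT, stood at 8.28, 8.71 and 8.74 in Mock and at 7.64, 7.85 and 7.90 in Ad-Epas1. It was 1.72-fold lower (SE 0.14 on the log2 scale, adjusted p = 0.015). Kit, its receptor gene, had means below the reference in both groups (6.46 and 6.51, difference 0.05, adjusted p = 0.71), and none of 7 mast cell markers was above it on any array.

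Gas6, which encodes the ligand of the AXL, MERTK and TYRO3 receptors, stood at 12.06, 12.30 and 12.32 in Mock and at 10.88, 11.51 and 11.74 in Ad-Epas1. It was 1.80-fold lower (SE 0.22 on the log2 scale, adjusted p = 0.042). Axl was 0.03 higher on the log2 scale (95% interval -0.19 to 0.24, adjusted p = 0.86). Tyro3 differed by 0.15 (adjusted p = 0.18). Mertk, a receptor gene of macrophages, was at 9.03, 8.89 and 8.76 in Mock and at 10.11, 9.64 and 8.34 in Ad-Epas1 (0.47, adjusted p = 0.48, against 0.98 and 0.0056 without Ad-Epas1 replicate 3). The calls of Hgf, Kitl and Gas6 all ended without replicate 2 or 3 of Mock or replicate 2 of Ad-Epas1, and those of Hgf and Gas6 also without Mock replicate 1 (highest adjusted p 0.13, 0.070 and 0.14). With the trended, robust prior the calls of Hgf and Gas6 ended. Mdk and Ptn, the genes of the heparin-binding factors midkine and pleiotrophin, differed by 0.12 and 0.39 and did not pass (adjusted p = 0.45 and 0.55). Ptn stood at 9.66 on Ad-Epas1 replicate 3 and between 7.94 and 8.52 on the other 5 arrays. Without Ad-Epas1 replicate 3 its difference was -0.10 (adjusted p = 0.77).

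In the IGF family the ligand gene fell, and of 7 binding protein genes 2 rose and 5 did not pass. Over all genes 6.57% rose and 9.75% fell. Without Ad-Epas1 replicate 3, 3 of the 7 rose and 1 fell, against 10.3% and 14% of all genes. Igf1 stood at 10.87, 10.96 and 11.01 in Mock and at 10.12, 10.24 and 10.59 in Ad-Epas1. It was 1.54-fold lower (-0.63 on the log2 scale, SE 0.13, adjusted p = 0.020). Igf1 is made by fibroblasts and by macrophages. It stood at 10.59 on the array where Adgre1 was at 5.89, and which cells it came from was not tested. Without that array it was lower by a log2 fold change of -0.76 (adjusted p = 0.0014). The Igf1 call ended when replicate 2 or 3 of Mock, or replicate 1 or 2 of Ad-Epas1, was left out (highest adjusted p 0.088). Igf1r, the IGF1 receptor gene, stood at 10.73, 10.88 and 10.90 in Mock and at 10.95, 11.05 and 11.29 in Ad-Epas1. Although the groups did not overlap, the difference of 0.26 did not pass (95% interval 0.00 to 0.51 before adjustment, adjusted p = 0.15). The insulin receptor gene Insr differed by 0.18 (adjusted p = 0.15). Igf2 and its clearance receptor gene Igf2r, which are no members, differed by -0.08 and 0.09 (adjusted p = 0.53 and 0.72).

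Igfbp5, whose protein binds IGF1 and extracellular matrix, showed the larger of both rises among the binding proteins. It stood at 9.85, 9.95 and 10.01 in Mock and at 11.15, 11.58 and 12.38 in Ad-Epas1. The Mock arrays lay close together, and the highest level was that of Ad-Epas1 replicate 3. The rise was 3.41-fold (1.77 on the log2 scale, SE 0.29, adjusted p = 0.010) and 1.43 on the log2 scale without that array (adjusted p = 9.0e-04). Igfbp4, which encodes an inhibitory binding protein, stood at 10.81, 10.79 and 10.75 in Mock and at 11.41, 11.42 and 11.25 in Ad-Epas1. Its rise of 1.49-fold was smaller and even across arrays (SE 0.07 on the log2 scale, adjusted p = 0.0047). Both kept their calls with any 1 array left out.

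The other binding protein genes did not pass over all arrays. Igfbp3, the main IGF carrier of blood, stood at 9.62, 9.20 and 9.25 in Mock and at 11.30, 10.44 and 9.48 in Ad-Epas1. Ad-Epas1 replicate 3 lay within the Mock range, in the opposite order to Igfbp5. The difference of 1.05 did not pass (adjusted p = 0.14), and without that array it was 1.51 (adjusted p = 0.0072). Igfbp6, which prefers IGF2, stood at 11.66, 11.69 and 11.72 in Mock and at 11.32, 11.26 and 12.07 in Ad-Epas1 (-0.14, adjusted p = 0.68). Its Ad-Epas1 arrays lay on both sides of Mock, and without Ad-Epas1 replicate 3 Igfbp6 fell by 0.40 (adjusted p = 0.0084). Igfbp2 and Igfbp7 differed by -0.20 and -0.04 (adjusted p = 0.56 and 0.69), and for Igfbp7 the 95% interval ran from -0.19 to 0.11. Igfbp1 lay below the reference on all arrays (0.07, adjusted p = 0.64).

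The adaptors that carry IGF1 and insulin signals differed from each other. Irs1 stood at 9.21, 9.84 and 9.87 in Mock and at 7.85, 8.08 and 8.82 in Ad-Epas1. It was 2.62-fold lower (-1.39 on the log2 scale, SE 0.29, adjusted p = 0.022, and -1.67 without Ad-Epas1 replicate 3). It no longer passed when replicate 2 or 3 of Mock, or replicate 1 or 2 of Ad-Epas1, was left out (highest adjusted p 0.091). A second, dimmer Irs1 probe set, below the reference on all arrays, differed by -0.10 (adjusted p = 0.39). Irs2 differed by 0.22 with no overlap between the groups and did not pass (adjusted p = 0.10).

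**Figure D3:**
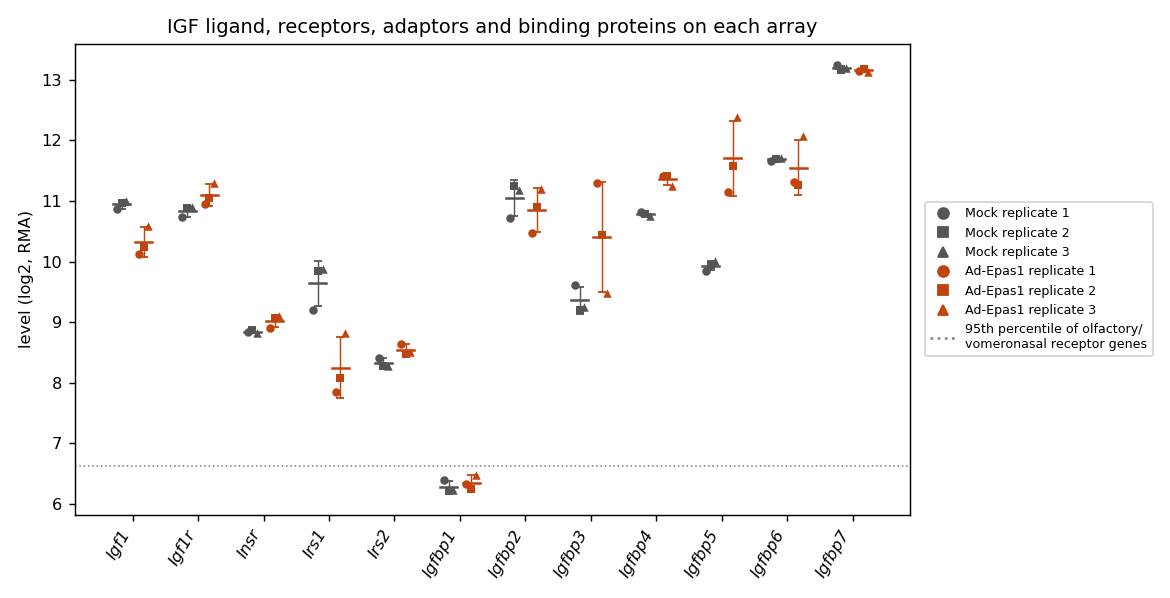
Log2 level (y axis) of the 12 IGF family genes on each of the 6 arrays, with group means and SDs (n = 3) and the reference of 6.62 as a dotted line. Igf1 and Irs1 lie lower and Igfbp4 and Igfbp5 higher on all Ad-Epas1 arrays, and Igfbp3 and Igfbp5 order those arrays in opposite ways.

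Other genes of the same pathways were taken from 7 lists of 107 genes, with 102 of them measured and the other 5 not analysed here. Of the 102, 9 rose and 10 fell (18.6%, against 16.3% of all genes), with a median log2 fold change of 0.14 against 0.05. Without Ad-Epas1 replicate 3, 21 rose and 12 fell, against 10.3% and 14% of all genes. The number that rose was 3 with replicate 2 or 3 of Mock, or replicate 2 of Ad-Epas1, left out. The number that fell was 6 without Mock replicate 2. Of 12 further FGF ligand and FGF carrier genes none passed, and of 10 further ligands 1 rose (10% passed), against 16.3% of all genes. The risen gene was Manf (0.29, adjusted p = 0.031, named after its value was seen), which encodes a stress-induced secreted protein. Manf kept its call when Ad-Epas1 replicate 3 was left out and lost it with each other array (highest adjusted p 0.12).

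Of 22 partner receptors, 4 fell and none rose (18.2% passed, against 16.3% of all genes). Beside Pdgfrb and Gfra1 these were Ntrk3 and Gfra4, Gfra4 being singled out after the values were known (-0.43, adjusted p = 0.017, and up to 0.079 without Mock replicate 2 or Ad-Epas1 replicate 2). Ntrk3, the receptor gene of neurotrophin-3, stood at 8.93, 9.83 and 9.78 in Mock and at 7.02, 6.99 and 7.74 in Ad-Epas1. At 4.79-fold lower (-2.26 on the log2 scale, SE 0.30, adjusted p = 0.0055) its fall was deeper than that of any member, a comparison of fold changes that was not tested.

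Of 13 co-receptors and heparan sulfate proteoglycans, 2 rose, 1 fell and 10 did not pass. The share that passed was 23.1%, against 16.3% of all genes. Gpc1 and Sdc4, which encode heparan sulfate carriers that help FGFs bind, rose by 0.74 and 0.59 on the log2 scale (adjusted p = 0.0019 and 0.0035). Gpc1 was at 10.81 to 10.83 in Mock and at 11.48 to 11.63 in Ad-Epas1. Nrp1, a co-receptor of several growth factors, was 2.33-fold lower (adjusted p = 0.0043). Among 14 extracellular activators, inhibitors and IGFBP proteases, 2 fell and none rose (14.3% passed, against 16.3% of all genes). They were Pappa (-0.98, adjusted p = 0.0057) and Pappa2 (-0.93, adjusted p = 0.023), which encode proteases that cut IGF binding proteins, PAPPA acting on IGFBP4 and both on IGFBP5. Pappa lay between 7.30 and 7.60 in Mock and at 6.24, 6.52 and 6.68 in Ad-Epas1, near or below the reference in the latter. Pappa2 did not pass when replicate 2 or 3 of Mock, or replicate 1 or 2 of Ad-Epas1, was left out (highest adjusted p 0.095).

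Among 15 adaptors and signal inhibitors, 1 rose and 2 fell (20% passed, against 16.3% of all genes). Socs2, a feedback inhibitor of growth hormone signalling, stood at 10.66, 10.81 and 10.90 in Mock and at 9.17, 9.34 and 9.55 in Ad-Epas1. It was 2.71-fold lower (SE 0.12 on the log2 scale, adjusted p = 0.0013). Of 16 feedback targets of FGF receptors and the ERK kinases, 5 rose, 1 fell and 10 did not pass. The share that passed was 37.5%, against 16.3% of all genes, and the median was 0.30. Spred3 and Spred2, inhibitors of the Ras and ERK cascade, rose by 1.35 and 0.60 on the log2 scale (adjusted p = 0.0068 and 0.011). Spry2, an FGF receptor feedback inhibitor, stood at 8.22, 8.79 and 8.79 in Mock and at 9.48 or above on all Ad-Epas1 arrays, a rise of 1.07 (adjusted p = 0.016). Etv5, a transcription factor gene that FGF signalling induces, was at 9.10, 9.23 and 9.27 in Mock and at 8.49, 8.65 and 8.37 in Ad-Epas1, and fell by 0.69 (adjusted p = 0.0057). So members of this list passed in both directions. The other 2 that rose, Dusp5 (1.42, adjusted p = 0.018) and Dusp4 (1.10, adjusted p = 0.035), encode ERK phosphatases and were named after their values were seen. Of the 5, Spred3 alone passed when replicate 2 or 3 of Mock, or replicate 2 of Ad-Epas1, was left out, and the highest adjusted p was 0.055 for Spry2, 0.056 for Spred2, 0.075 for Dusp5 and 0.13 for Dusp4. Without Ad-Epas1 replicate 3, 8 genes of this list rose and 1 fell, against 10.3% and 14% of all genes.

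**Figure D4:**
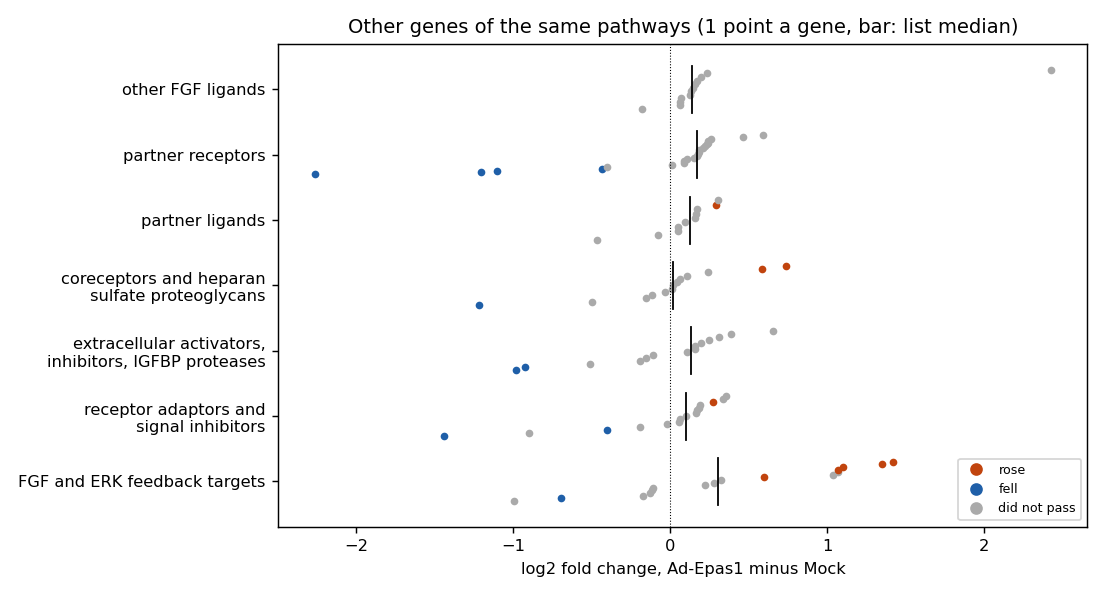
Log2 fold change (x axis, Ad-Epas1 minus Mock) of 102 other genes of the same pathways in 7 lists (rows), 1 point a gene, coloured by test result, with a bar at each list's median. The feedback targets have the highest median (0.30), and the grey point at 2.42 is Fgf23.

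The arrays of each group were not alike for these genes. Mock replicate 1 was the lowest Mock array for 10 of the 13 fallen members, whose median there lay at -0.16 from the Mock mean, against 0.08 and 0.12 on replicates 2 and 3. On Ad-Epas1 replicates 1, 2 and 3 the same median was -0.93, -0.78 and -0.76. Ad-Epas1 replicate 1 had the lowest value of 9 of them and Ad-Epas1 replicate 3 that of 4. For the 5 risen members the median was 1.22, 1.42 and 0.75. Of the 18 members that passed, 7 did so with any 1 array left out. These were Gdnf, Igfbp4, Igfbp5, Fgf10, Fgf13, Fgf18 and Pdgfb. No single array moved the fold change of a called member by more than 1.46-fold.

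**Figure D5:**
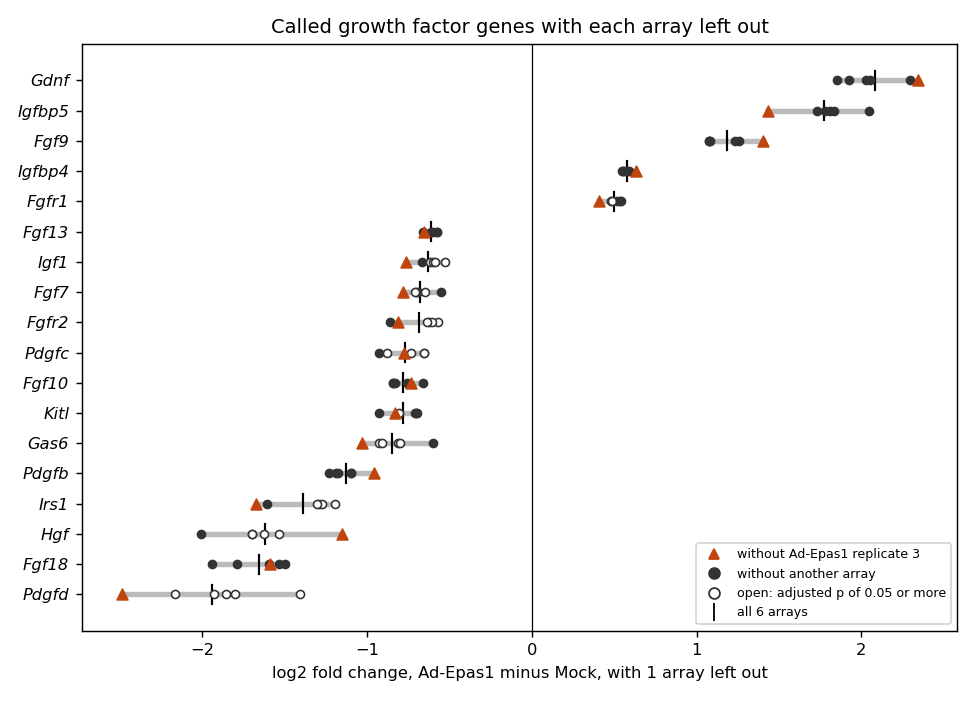
Log2 fold change (x axis, Ad-Epas1 minus Mock) of the 18 members that passed, with 1 array left out at a time; triangles mark the fit without Ad-Epas1 replicate 3, open symbols an adjusted p of 0.05 or more, and ticks the value over all 6 arrays. All triangles are filled, and Pdgfd has the widest range (-2.49 to -1.40).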

How the data were processed

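Total RNA (300 ng an array) of 3 Mock and 3 Ad-Epas1 samples was measured on Affymetrix whole-transcript arrays. The authors deposited log2 expression values per probe set after RMA, and the submitters' processing notes name Expression Console 1.3.1. RMA corrects background, equalises the arrays' distributions (medians 6.77 to 6.84 here) and compresses large folds, so a shift common to most genes would be hidden. No source used here names the probe sets' genome build. Precision is limited by the number of arrays. An exact test of 3 against 3 cannot go below p = 0.1.

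Of 41345 probe sets, 23521 had 1 gene symbol. Those with several (1814) or none (16010) were not used. The Entrez identifiers of 23328 matched a RefSeq table (GRCm38.p6), which changed 0 symbols. Of a gene's probe sets the one with the highest mean was used, which left 22180 genes, without a filter on level (2 members had a second probe set). The groups were compared in limma 3.58.1 (lmFit, eBayes, two-sided, R 4.3.3), p-values were adjusted by Benjamini-Hochberg across the 22180 genes, and the threshold was 0.05, and the fit was tested on simulated data. Adjusted p-values in the text are limma's. Groups came from the sample titles, and 0 columns of other samples were present. Members, lists and the rule for named genes were chosen with earlier results of these data known. All members are accounted for. Values on every array are given for those that passed or reached 1.5-fold and for 9 set members, and up to 4 genes of each partner list with a fold of at least 1.5 and 10 set partners were to be named, of which 1 was not analysed here.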

Additional observations from a re-analysis of the deposited data

How the results depend on the processing

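No member that passed turned sign under any of the alternatives. Over 16 alternatives, 600 of 677 values of members kept their side of the threshold, 61 lost a call and 16 gained one. The counts of members changed most without shared variance (1 rose, 1 fell) and with array weights (10 rose). With arrays left out one at a time, 3 to 6 members rose and 4 to 14 fell, 418 to 2290 of all genes rose and 762 to 3100 fell, and 3 to 21 partner genes rose and 6 to 12 fell. Leaving out both Mock replicate 1 and Ad-Epas1 replicate 3 gave 2621 risen and 3379 fallen genes and 22 risen partner genes. Array weights gave 3760 and 4031 genes, and 35 and 16 partner genes. Without shared variance, 627 genes rose and 821 fell, as did 3 and 5 partner genes. The causes were not tested.

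Same-numbered replicates deviated together in 2 of 3 pairs (correlations of deviations from the group means 0.341, -0.189 and 0.214). Replicates of different numbers gave -0.331 to 0.267. Deviations from a group mean are tied to each other, so these values cannot decide if replicates were paired. The numbers were not taken as pairs. With the replicate block 5 members rose and 13 fell, as without it, and 1140 of all genes rose and 1968 fell. Fgfr2 and Pdgfd lost their calls with arrays centred on their median or after a second quantile step, which left 5 risen and 11 fallen members. The filter on level left out 11 members. Members near the reference level carry folds that are not exact.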

Other observations

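Several genes of the same pathways stood apart on Ad-Epas1 replicate 3, the array on which macrophage markers summed to 86.7. All genes named here were chosen after their values were seen, because they stood apart on that array. Their values without it therefore give no independent support. Without that array 24.3% of all genes passed, against 16.3% with it. Fgf23, a hormone-like FGF, stood at 6.28, 6.18 and 6.28 in Mock and at 10.25, 9.39 and 6.39 on Ad-Epas1 replicates 1, 2 and 3. Mock and Ad-Epas1 replicate 3 lay below the reference of 6.62. The log2 fold change over all arrays was 2.42 (limma, adjusted p = 0.12), and 3.57 without Ad-Epas1 replicate 3 (adjusted p = 3.3e-04).

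Dusp6, a phosphatase gene that ERK signalling induces, stood at 10.31, 10.39 and 10.42 in Mock and at 11.88, 11.83 and 10.52 in Ad-Epas1 (1.04, adjusted p = 0.092, and 1.48 without Ad-Epas1 replicate 3). Spry3 differed by 1.07 over all arrays and by 1.58 without that array (adjusted p = 0.14 and 0.0018). Grb14, an adaptor that inhibits the insulin receptor, stood at 7.34, 8.41 and 9.16 in Ad-Epas1 and between 9.16 and 9.28 in Mock, with -0.90 over all arrays and -1.33 without Ad-Epas1 replicate 3 (adjusted p = 0.18 and 0.016). The part of the macrophage transcripts in these values was not tested.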
